A study of Mus musculus with 24 samples.

Results

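The genes described here encode 6 secreted proteins of the acute-phase response: the serum amyloid A proteins Saa3, Saa1 and Saa2, the siderophore-binding lipocalin Lcn2, the hemoglobin-binding protein haptoglobin (Hp) and the long pentraxin Ptx3. They are 6 of 55471 genes counted by RNA-seq in 3T3 MEFs, an immortalized mouse embryonic fibroblast line, and 5 of them passed the filter on low counts that left 17522 genes for testing. Saa1 did not pass it, and Saa2 and Hp had more than a few counts in some groups only. The genes were chosen by name on their CPM levels over the 8 groups, which were already known, so their differences between groups are given as a description, with standard errors and without p-values. The count of members past the threshold stands beside the share of all genes past it, and nothing is read from that count.

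The 24 libraries fell into 8 groups of 3: wild-type (WT) MEFs, Lkb1-/- MEFs, which lack the kinase LKB1 (gene Stk11), and the clones A1 and A2 of Lkb1-/-/Crtc2-/- MEFs, each untreated or stimulated with IL-1β at 0.1 ng/mL for 6 h. CRTC2 is a coactivator of the transcription factor CREB. Both clones carry the LKB1 deletion of the Lkb1-/- cells, were made from them by CRISPR-Cas9 editing of Crtc2, and are 1 clone each, so a difference between a clone and the Lkb1-/- cells cannot be told apart from a difference between clones of the line. Nothing in the sources used here says that WT or Lkb1-/- MEFs were more than 1 line each, so loss of LKB1 cannot be told apart from a difference between lines either. Nothing in the labels says that the 3 libraries of a group came from separate cultures, so p-values measure the spread between these libraries, which may be technical.

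Acute-phase proteins are known mostly as products of the liver that are released into blood during infection or injury, under the control of IL-1 and IL-6. Fibroblasts, macrophages and epithelia also make some of them, above all Saa3, Lcn2 and Ptx3. IL-1 acts on such genes through NF-κB, IL-6 and its relatives act through STAT3, and the C/EBP factors, with IκBζ (Nfkbiz) on Lcn2, are required for full induction of many of them.

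The genes lie at 4 loci of mouse build GRCm38. Saa3 (chromosome 7, 46711998 to 46715700, minus strand), Saa1 (46740497 to 46742980, minus strand) and Saa2 (46751790 to 46754313, plus strand) form 1 cluster with Saa4 and the pseudogene Saa-ps. Lcn2 lies on chromosome 2 (32384633 to 32388252, minus strand), Ptx3 on chromosome 3 (66219910 to 66225805, plus strand) and Hp on chromosome 8 (109575128 to 109579172, minus strand). All 6 are annotated as protein coding. To show what these promoters share, sequence upstream of the start site is printed for 5 genes, with matches to the C/EBP motif TTGCNNAA on either strand in capitals. The set of RefSeq promoters used here held no entry for Hp. The gene spans are those of GENCODE and the stretches those of RefSeq, whose starts of Saa3, Saa2 and Lcn2 lie inside the GENCODE spans. The stretch of 250 bases was ended where GENCODE annotates a UTR, so those of Saa3 (226 bases), Saa2 (207) and Lcn2 (192) stop short of the RefSeq start, and that of Lcn2 overlaps the printed span.
Saa3, chr7:46715701-46715926, minus strand: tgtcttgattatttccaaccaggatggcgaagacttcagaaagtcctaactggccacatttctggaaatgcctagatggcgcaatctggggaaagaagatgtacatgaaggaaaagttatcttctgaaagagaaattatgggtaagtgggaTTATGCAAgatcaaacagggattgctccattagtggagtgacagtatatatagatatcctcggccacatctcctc
Saa1, chr7:46742981-46743230, minus strand: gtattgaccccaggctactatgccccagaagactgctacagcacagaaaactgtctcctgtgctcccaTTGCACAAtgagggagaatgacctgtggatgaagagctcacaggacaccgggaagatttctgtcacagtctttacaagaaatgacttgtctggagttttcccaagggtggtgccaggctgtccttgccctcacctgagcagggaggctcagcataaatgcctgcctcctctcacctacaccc
Saa2, chr7:46751583-46751789, plus strand: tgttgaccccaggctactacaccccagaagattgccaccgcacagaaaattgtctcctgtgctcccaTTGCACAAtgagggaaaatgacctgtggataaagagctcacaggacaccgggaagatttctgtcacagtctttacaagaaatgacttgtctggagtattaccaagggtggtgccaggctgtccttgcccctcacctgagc
Lcn2, chr2:32387798-32387989, minus strand: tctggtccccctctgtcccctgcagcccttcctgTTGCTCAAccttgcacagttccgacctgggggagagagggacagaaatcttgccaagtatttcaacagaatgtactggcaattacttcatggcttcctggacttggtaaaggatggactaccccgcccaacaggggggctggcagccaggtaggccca
Ptx3, chr3:66219637-66219886, plus strand: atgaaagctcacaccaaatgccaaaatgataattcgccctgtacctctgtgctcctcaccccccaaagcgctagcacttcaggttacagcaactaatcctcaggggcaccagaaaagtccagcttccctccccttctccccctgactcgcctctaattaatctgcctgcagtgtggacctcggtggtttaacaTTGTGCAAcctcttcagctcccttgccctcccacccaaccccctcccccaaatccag

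Each of these 5 stretches held 1 match to the C/EBP motif, whereas between 7.8% and 9.6% of 32851 RefSeq promoters held one in a stretch of the same length. Counted to the RefSeq start, which is not the end of each printed stretch, the match began 99 bases before it in Saa3, 57 before it in Ptx3, 216 before it in Lcn2, 182 before it in Saa1 and 183 before it in Saa2. None of the 5 stretches held the NF-κB consensus, the CREB motif TGACG, the AP-1 motif TGANTCA or the STAT motif TTCNNNGAA on either strand, and these letters may lie outside the stretches printed. The Saa1 and Saa2 promoters were 94.2% identical over 207 aligned columns, and their transcripts 93.9% identical. Of the 560 stretches of 50 bases in the Saa1 transcript, 74 (13.2%) also occur in Saa2. A read from there does not by itself name 1 gene, so the counts of both are uncertain. Whether the other read of a pair settles it was not tested. Saa3 shares 61.6% of its sequence with Saa1, and 9 such stretches.

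Each library held between 38842901 and 48594394 counts assigned to genes. Levels are CPM, counts scaled to a common library total after TMM, and 3 counts in a library, taken as the limit of detection, came to about 0.07 CPM. The labels were checked by their genes: Stk11 averaged 84.7 to 86.0 CPM in both WT groups and 16.8 to 22.5 CPM in the 6 groups without LKB1. Crtc2 averaged 81.1 and 82.7 CPM in Lkb1-/- MEFs and 42.9 to 53.0 CPM in the clones. The summed level of 8 fibroblast markers lay between 3430 and 7580 CPM, although Thy1 and Lum were at or near 0 in every group and single markers differed between genotypes. Pdgfra averaged 4.58 CPM in untreated WT and 342 CPM in untreated Lkb1-/- MEFs, and Col1a2 780 and 63.0 CPM. The 8 hepatocyte markers summed to between 0 and 0.175 CPM, and none had a mean of 1 CPM in any group. The 6 neutrophil markers summed to at most 0.0261 CPM in WT, 1.05 CPM in clone A1, 2.90 CPM in clone A2 and 3.42 CPM in Lkb1-/- MEFs, nearly all of it S100a8. The 6 macrophage markers summed to between 2.49 and 5.13 CPM in WT and between 4.32 and 8.96 CPM in the cells without LKB1, with 1 to 3 of them at 0 in each group, and the 4 endothelial markers to between 0.370 and 0.678 and between 2.06 and 3.85 CPM. The 5 epithelial markers went the other way, with sums of 1.5 to 2.93 CPM in WT, 0.576 to 1.26 in Lkb1-/-, 0.276 to 0.549 in clone A1 and 0.110 to 0.278 in clone A2, and the 6 adipocyte markers summed to between 2.27 and 6.13 CPM. The part of any of these markers in the levels below was not tested.

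Saa3 is a serum amyloid A made mostly outside the liver. Untreated WT libraries held 1, 0 and 1 counts. After IL-1β the WT libraries held 0.741, 4.65 and 3.41 CPM. Untreated Lkb1-/- libraries held 1.11, 2.69 and 1.36 CPM, so that untreated Lkb1-/- MEFs overlapped with stimulated WT MEFs. After IL-1β the Lkb1-/- libraries held 70.3, 178 and 166 CPM, each far above the highest WT library. Clone A1 held 0.0488, 0.0960 and 0.115 CPM untreated, that is 2, 4 and 5 counts, and 5.15, 5.85 and 11.6 CPM after IL-1β. Clone A2 held 0.101, 0.417 and 1.87 CPM untreated and 42.8, 155 and 277 CPM after IL-1β. Stimulated clone A2 thus overlapped with stimulated Lkb1-/- MEFs, and stimulated clone A1 did not reach the lowest library of either. In bulk RNA, fewer expressing cells and less RNA per cell cannot be told apart.

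The order of the Saa3 group means was clone A2 after IL-1β (158 ± 117 CPM, SD, n = 3), Lkb1-/- after IL-1β (138 ± 59.1), clone A1 after IL-1β (7.52 ± 3.52), WT after IL-1β (2.93 ± 2.0), untreated Lkb1-/- (1.72 ± 0.851), untreated clone A2 (0.796 ± 0.944), untreated clone A1 (0.0866 ± 0.0341) and untreated WT (0.0161 ± 0.0141). Neighbours in this order overlapped in their libraries except at 3 steps: stimulated Lkb1-/- against stimulated clone A1, stimulated clone A1 against stimulated WT, and untreated clone A1 against untreated WT. The last step lies around the limit of detection of 3 counts, with 2, 4 and 5 counts against 1, 0 and 1, so overlap there cannot be judged.

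Lcn2 starves bacteria of iron by binding their siderophores. All 3 untreated WT libraries held 0 counts, which allows up to 3 counts in each. Stimulated WT libraries held 1.11, 5.63 and 5.25 CPM. Untreated Lkb1-/- libraries held 0.679, 0.928 and 1.10 CPM, and stimulated ones 33.7, 66.8 and 74.6 CPM. Both Lkb1-/- groups stood above the WT group of the same treatment in every library. Clone A1 held 0.195, 0.240 and 0.115 CPM untreated and 9.42, 10.5 and 11.3 CPM after IL-1β, the tightest of the stimulated groups. Clone A2 held 0.947, 1.62 and 1.87 CPM untreated and 33.6, 85.7 and 140 CPM after IL-1β. The lowest stimulated Lkb1-/- and clone A2 libraries stood well above the highest stimulated clone A1 library. In order, the group means were 86.3 ± 53.0 CPM in stimulated clone A2 (SD, n = 3), 58.3 ± 21.7 in stimulated Lkb1-/-, 10.4 ± 0.948 in stimulated clone A1, 4.0 ± 2.51 in stimulated WT, 1.48 ± 0.478 in untreated clone A2, 0.901 ± 0.209 in untreated Lkb1-/-, 0.183 ± 0.0634 in untreated clone A1 and 0 in untreated WT. Stimulated clone A2 and Lkb1-/-, stimulated WT and untreated clone A2, and untreated clone A2 and Lkb1-/- overlapped, and the other neighbours did not.

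Hp binds free hemoglobin and was scarce everywhere. Untreated WT libraries held 0, 0 and 1 counts, and stimulated ones 1, 4 and 4. Untreated Lkb1-/- libraries held 1, 10 and 7 counts, and stimulated ones 24, 93 and 61, or 0.576, 1.93 and 1.46 CPM. Clone A1 held 0 counts in each untreated library and 1, 2 and 1 after IL-1β. Clone A2 held 1, 4 and 3 counts untreated and 13, 34 and 70 after IL-1β, or 0.287, 0.722 and 1.71 CPM. The stimulated Lkb1-/- and clone A2 groups were the only ones with more than 10 counts in any library. Their means of 1.32 ± 0.689 and 0.908 ± 0.731 CPM (SD, n = 3) overlapped, and those of the other 6 groups lay at or below 0.140 CPM.

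Saa1 and Saa2, the forms that circulate with high-density lipoprotein, were near the limit of detection. Saa1 had 0 counts in all 12 untreated libraries and in the 3 stimulated WT libraries. It had 3, 7 and 3 counts in stimulated Lkb1-/- libraries, 0, 0 and 2 in stimulated clone A1 and 2, 13 and 34 in stimulated clone A2. Saa2 had 0, 7 and 13 counts in stimulated Lkb1-/- libraries, 1, 0 and 0 in stimulated clone A1 and 2, 22 and 25 in stimulated clone A2. Outside these groups it had at most 2 counts in any library, and 0 in all 6 WT libraries. Both genes were thus found above 3 counts in no group but stimulated Lkb1-/- and stimulated clone A2. Saa4 of the same cluster did not pass the filter on low counts.

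Ptx3, a soluble pattern recognition molecule that binds complement C1q and stabilizes the hyaluronan matrix, was abundant in every group and ordered differently. WT libraries held 52.7, 67.8 and 54.5 CPM untreated and 125, 173 and 152 CPM after IL-1β. Lkb1-/- libraries held 232, 240 and 143 CPM untreated and 378, 436 and 330 CPM after IL-1β. Clone A1 held 414, 515 and 349 CPM untreated and 627, 780 and 603 CPM after IL-1β, above every library of the other genotypes at the same treatment. Clone A2 held 158, 176 and 84.8 CPM untreated and 245, 336 and 209 CPM after IL-1β. In order, the group means were 670 ± 95.8 CPM in stimulated clone A1 (SD, n = 3), 426 ± 83.7 in untreated clone A1, 381 ± 53.2 in stimulated Lkb1-/-, 264 ± 65.5 in stimulated clone A2, 205 ± 53.4 in untreated Lkb1-/-, 150 ± 24.3 in stimulated WT, 140 ± 48.4 in untreated clone A2 and 58.4 ± 8.27 in untreated WT. Only the first and the last group of this order were free of overlap with their neighbour.

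**Figure D1:**
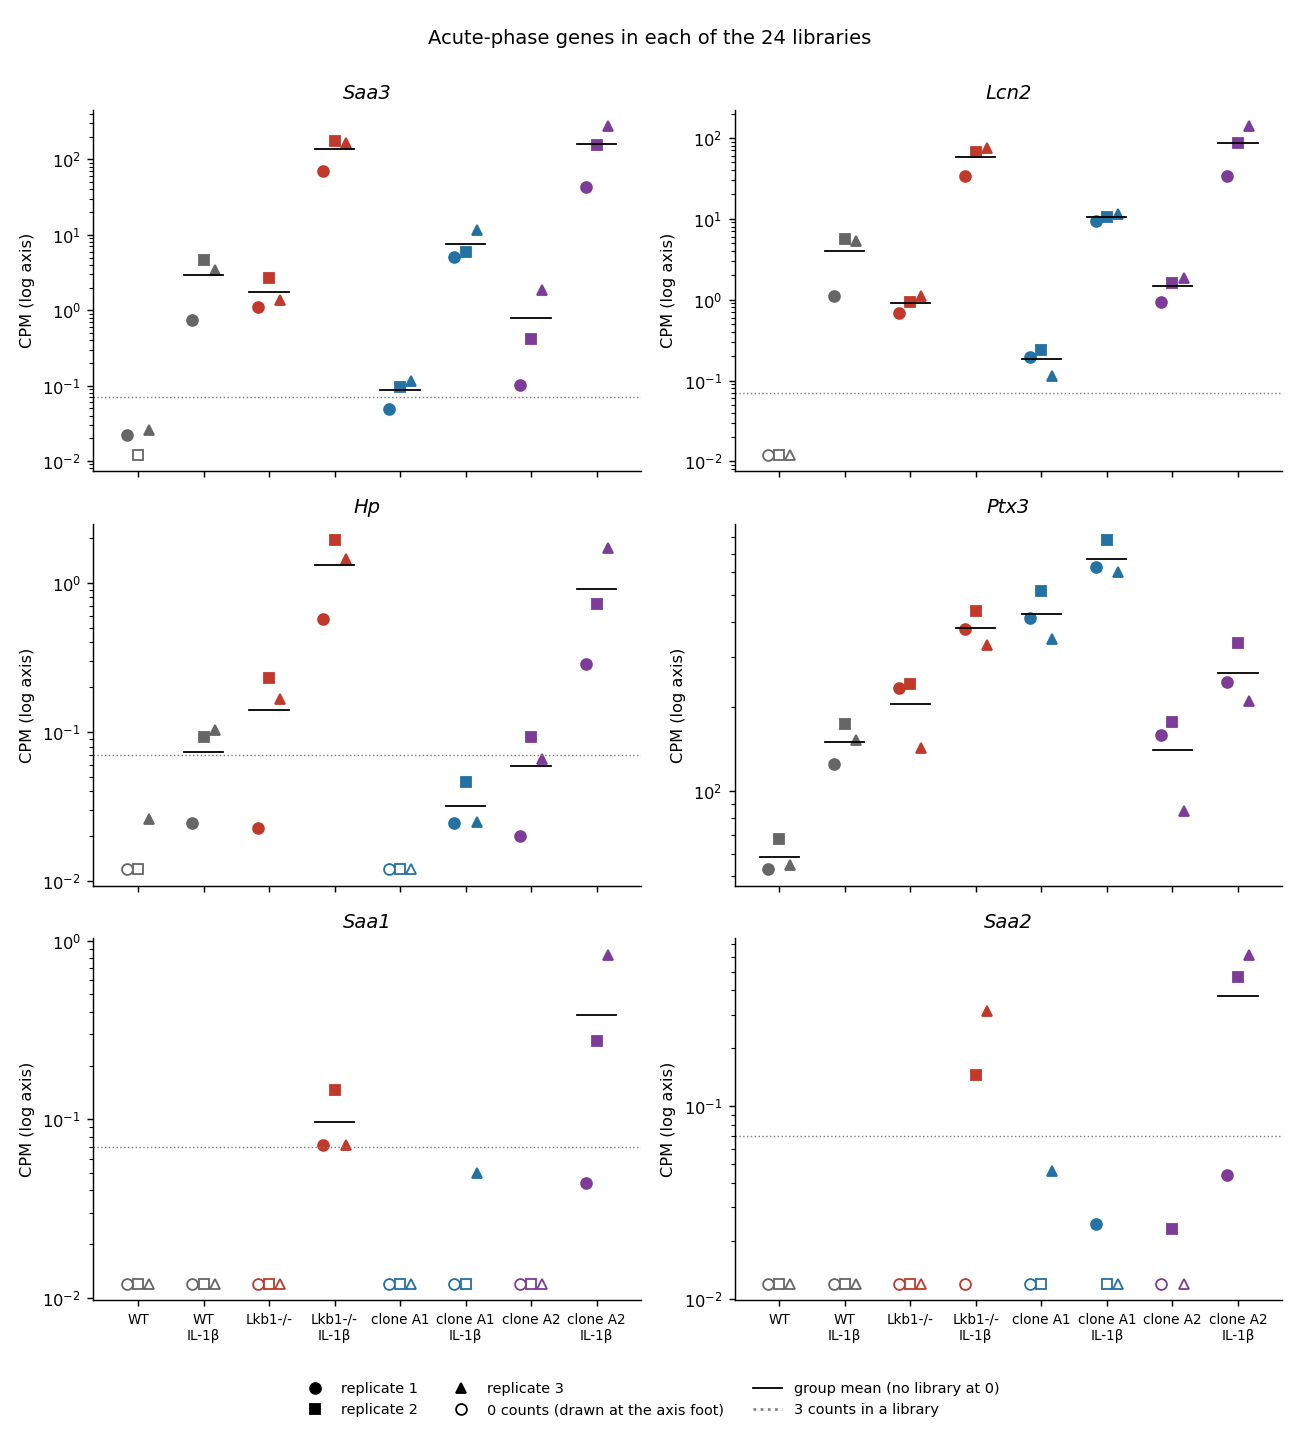
Level of the 6 acute-phase genes in each library, in CPM on a log axis, by genotype and treatment, with 1 symbol per library, open symbols for 0 counts, a bar for the group mean where no library is at 0 and a dotted line at 3 counts. Saa3, Lcn2 and Hp are higher in stimulated Lkb1-/- and clone A2 MEFs than in stimulated clone A1 and WT, whereas Ptx3 is highest in clone A1 (670 CPM after IL-1β).

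Levels of different genes can be compared only per length of transcript. On CPM per kb of the principal transcript, untreated WT MEFs had 30.7 ± 4.36 for Ptx3 (SD, n = 3) and 0.0291 ± 0.0254 for Saa3. In stimulated Lkb1-/- MEFs Saa3 reached 249 ± 106, Ptx3 201 ± 28.0, Lcn2 63.8 ± 23.8 and Hp 0.984 ± 0.512. In stimulated clone A2 Saa3 (285 ± 211) and Lcn2 (94.3 ± 57.9) stood beside Ptx3 at 139 ± 34.5, and in stimulated clone A1 Ptx3 (353 ± 50.5) stood above Saa3 at 13.5 ± 6.34 in every library. Saa3 and Ptx3 overlapped in stimulated Lkb1-/- and clone A2 MEFs. The order of both rests on the length used: per kb of all annotated exons Saa3 averaged 53.0 and Ptx3 142 in stimulated Lkb1-/- MEFs, and 60.8 and 98.3 in stimulated clone A2.

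The first comparison was between Lkb1-/- and WT MEFs. In untreated cells 4 of the 5 tested members were called higher in Lkb1-/- than in WT MEFs and none lower at a Benjamini-Hochberg FDR of 0.05 in edgeR's quasi-likelihood test, where 30.1% of all genes were called higher and 25.8% lower. Lcn2 was at least 12.6-fold higher, with WT taken at 3 counts per library. Saa3 was 109-fold higher (95% counting interval 29.7 to 903) and Hp 17.6-fold higher (2.78 to 734), intervals that cover counting error only. Ptx3 differed by 1.81 ± 0.24 (log2 fold change ± SE, n = 3 per group). After IL-1β all 5 were called higher, where 30.2% of all genes were and 27.1% were lower. The log2 differences were 5.55 ± 0.62 for Saa3, 4.12 ± 0.85 for Hp, 3.87 ± 0.46 for Lcn2 and 1.35 ± 0.24 for Ptx3. Saa2 was at least 2.06-fold higher, and without any 1 stimulated WT library, or without the third stimulated Lkb1-/- library, or with unstranded counts, it was not called. The Hp call in untreated cells was lost without either of the first 2 WT libraries or the second or the third Lkb1-/- library, with unstranded counts (log2 1.41) and by the newer quasi-likelihood method.

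The next comparison was IL-1β against no treatment within each genotype. In WT MEFs 3 of the 5 tested members were called higher, where 1.53% of all genes were, or 4.70% with the replicate number as a block. Lcn2 was at least 55.9-fold higher and Saa3 187-fold (95% counting interval 51.5 to 1550). The Saa3 call was lost without any 1 of the untreated WT libraries and without the second or the third stimulated one. In Lkb1-/- MEFs 4 were called higher, where 2.65% of all genes were (5.77% with the block), and with the block Saa2 was called too. Saa3 rose by 6.33 ± 0.67, Lcn2 by 6.02 ± 0.57 and Hp by 3.22 ± 0.70 on the log2 scale. In clone A1 2 were called higher, Saa3 (6.38 ± 1.97) and Lcn2 (5.81 ± 0.98), where 1.20% of all genes were, or 3.68% with the block. In clone A2 5 were called higher, where 2.81% of all genes were (7.27% with the block). There Saa3 rose by 7.65 ± 0.80, Lcn2 by 5.87 ± 0.51 and Hp by 3.89 ± 0.88, and Saa2 was 50.9-fold higher (95% counting interval 8.71 to 2050). In a fit of the 2 clone A2 groups alone, which called 246 genes in all, Hp and Ptx3 lost their call and Saa2 was not tested. The Saa2 call was lost without any 1 of the untreated or the second or the third stimulated clone A2 library.

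The log2 difference of Ptx3 between stimulated and untreated cells was 1.36 ± 0.24 in WT, 0.90 ± 0.24 in Lkb1-/-, 0.65 ± 0.24 in clone A1 and 0.92 ± 0.24 in clone A2. All but that of clone A1 were called, and with the replicate number as a block that of clone A1 was called as well (0.66 ± 0.13). In Lkb1-/- MEFs the call was lost without the first or the second stimulated or the third untreated library, and in clone A2 without the second stimulated or the third untreated library and in a fit of the 2 groups alone.

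When the responses themselves were compared by an interaction term, no tested member was called in any of the 3 comparisons, with or without the block across genotypes. Of all genes, 0.245% were called between Lkb1-/- and WT, 0.0285% between clone A1 and Lkb1-/- and 0.00% between clone A2 and Lkb1-/-, where 388 genes had an unadjusted p under 0.05 and DESeq2 called 10. With the block those shares were 1.77%, 0.205% and 0.103%. The response of clone A1 minus that of Lkb1-/- MEFs was 0.05 ± 2.08 for Saa3, -0.21 ± 1.14 for Lcn2 and -0.24 ± 0.33 for Ptx3 on the log2 scale. For clone A2 minus Lkb1-/- it was 1.32 ± 1.05, -0.15 ± 0.77 and 0.02 ± 0.34. For Lkb1-/- minus WT, Saa3, Lcn2, Hp and Saa2 had at most 3 counts in each untreated WT library. That comparison therefore could not show whether their responses differed. The same limit held for Saa2 and Hp in clone A1 minus Lkb1-/- and for Saa2 in clone A2 minus Lkb1-/-. Ptx3 responded by 0.46 ± 0.34 less in Lkb1-/- than in WT MEFs. With a block within each genotype this Ptx3 difference (-0.44) and that of Saa3 between clone A2 and Lkb1-/- MEFs (1.34) were called.

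**Figure D2:**
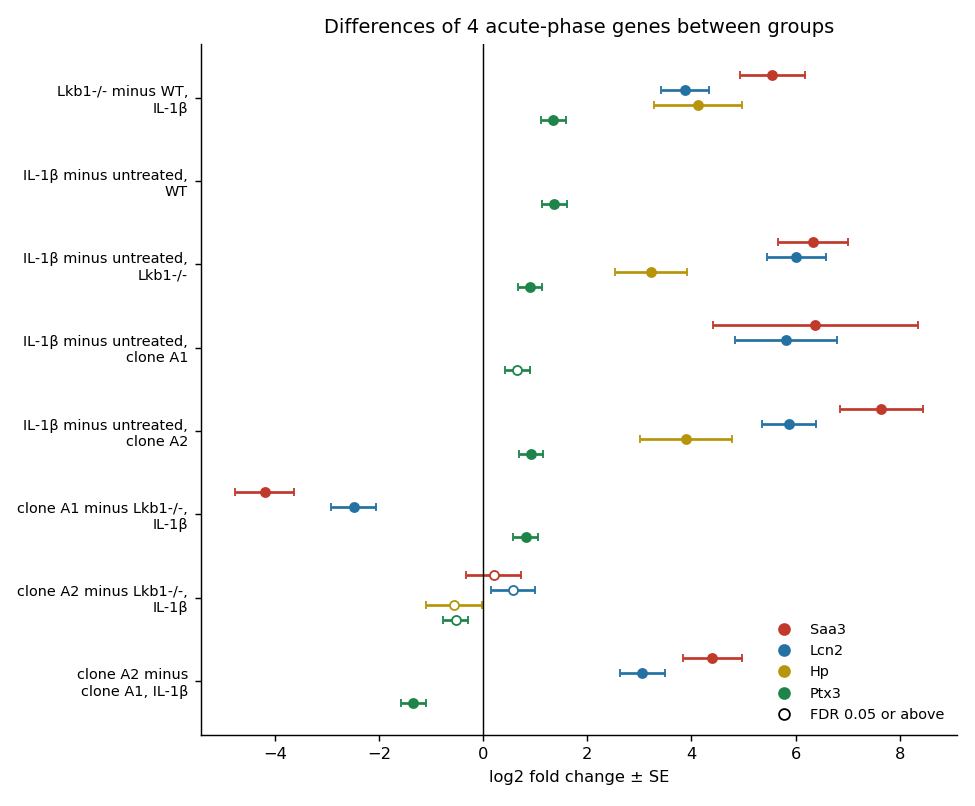
Log2 fold change ± SE of Saa3, Lcn2, Hp and Ptx3 in 8 comparisons, with filled symbols for FDR under 0.05 and open symbols otherwise, and no symbol where a group had at most 3 counts in each library. Clone A1 minus Lkb1-/- after IL-1β is below 0 for Saa3 (-4.20) and Lcn2 (-2.49) and above 0 for Ptx3 (0.81), and clone A2 minus Lkb1-/- is open for all 4.

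The comparison of the clones with Lkb1-/- MEFs asked what changed with loss of CRTC2 as well. After IL-1β clone A1 had 3 tested members called lower and 1 higher, where 17.3% and 19.4% of all genes were. Saa3 was lower by 4.20 ± 0.57 and Lcn2 by 2.49 ± 0.43 on the log2 scale, and Hp was 42.0-fold lower (95% counting interval 16.1 to 156). Ptx3 was higher by 0.81 ± 0.24, a call lost without the second stimulated clone A1 or the third stimulated Lkb1-/- library. Saa2, 18.9-fold lower (95% counting interval 3.02 to 783), was called only with the block, where 23.3% of all genes were called lower, and without the filter among the alternatives that kept every library. Clone A2 had none of the 5 called in either direction after IL-1β, where 32.8% of all genes were called. The log2 differences were 0.20 ± 0.53 for Saa3, 0.56 ± 0.42 for Lcn2, -0.56 ± 0.54 for Hp and -0.53 ± 0.24 for Ptx3, and with the block Ptx3 was called lower (-0.55 ± 0.13), as 22.1% of all genes were.

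In untreated cells clone A1 had 2 tested members called lower than in Lkb1-/- MEFs and 1 higher, where 16.4% and 18.9% of all genes were. Saa3 was lower by 4.26 ± 2.0, Hp by at least 1.97-fold, and Ptx3 was higher by 1.06 ± 0.24. Lcn2 (-2.28 ± 1.05) was called only with the block (where 22.5% of all genes were called lower), without the filter, by DESeq2 and in a fit of the 2 groups alone. Without the second untreated Lkb1-/- library neither Saa3 nor Hp was called, with unstranded counts or by the newer quasi-likelihood method Hp was not, and without any 1 of the untreated clone A1 libraries Saa3 was not. Clone A2 again had none called, where 32.3% of all genes were, with differences of -1.13 ± 0.90 for Saa3, 0.71 ± 0.64 for Lcn2 and -0.55 ± 0.24 for Ptx3, the last called with the block, as 21.4% of all genes were in the same direction.

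The clones were also set against each other. After IL-1β 4 of the 5 tested members were called higher in clone A2 than in clone A1, where 15.1% of all genes were. Another 1 was called lower, where 15.6% were. Saa3 was higher by 4.40 ± 0.57 and Lcn2 by 3.05 ± 0.43, Hp was 27.3-fold (95% counting interval 10.4 to 102) and Saa2 45.7-fold higher (7.83 to 1840), and Ptx3 was lower by 1.35 ± 0.24. Untreated, Lcn2 was called higher (2.99 ± 1.02, not by the newer quasi-likelihood method) and Ptx3 lower (-1.61 ± 0.24), where 15.8% and 16.7% of all genes were, and with the block Saa3 (3.13 ± 1.47) and Hp were called higher as well, as 23.1% of all genes were. Against stimulated WT MEFs, clone A2 had 5 of 5 called higher, where 32.0% of all genes were. Clone A1 had Lcn2 (1.38 ± 0.47) and Ptx3 (2.16 ± 0.24) called higher, where 30.1% were, and Saa3 (1.35 ± 0.65) only without the filter and with the block, where 34.5% were. The Lcn2 call was lost without the first stimulated WT library.

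In stimulated WT, Lkb1-/- and clone A2 MEFs the Saa3 level per Lcn2 level varied less between libraries than either level did. In stimulated WT MEFs the highest Saa3 level was 6.27 times the lowest and the highest Lcn2 level 5.07 times, yet the count of Saa3 per count of Lcn2 was 0.667, 0.826 and 0.650. In stimulated Lkb1-/- MEFs this ratio was 2.09, 2.67 and 2.22, in stimulated clone A1 0.547, 0.559 and 1.02 and in stimulated clone A2 1.27, 1.81 and 1.99. The ratio of stimulated clone A1 thus overlapped that of WT, and it was above 1 in every stimulated Lkb1-/- and clone A2 library, as a description of values that served to choose the genes. These are ratios of counts, and per length of transcript the mean ratio was 1.18 in stimulated WT, 3.84 in Lkb1-/-, 1.17 in clone A1 and 2.79 in clone A2. In stimulated clone A1 the ratio ranged 1.87-fold, beside 2.24-fold for Saa3 and 1.20-fold for Lcn2. It was 1.63, 2.90 and 1.24 in untreated Lkb1-/- MEFs, a 2.34-fold range beside 2.43-fold for Saa3 and 1.61-fold for Lcn2, and 0.106, 0.257 and 1.00 in untreated clone A2, where Saa3 ranged 18.6-fold and Lcn2 1.98-fold.

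**Figure D3:**
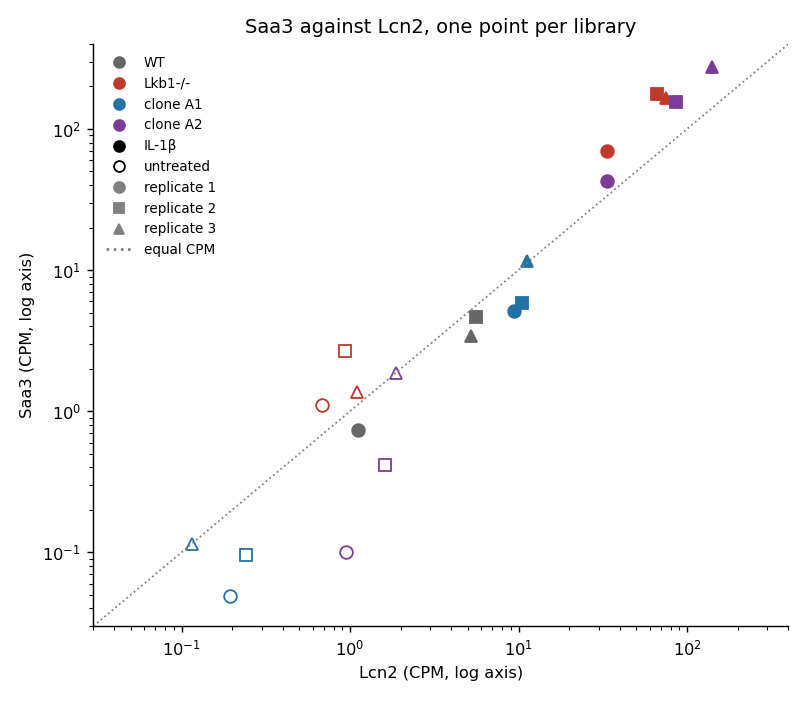
Saa3 against Lcn2 in each library with counts of both, in CPM on log axes, with filled symbols for IL-1β, open symbols for untreated cells and a dotted line at equal CPM, which makes no allowance for transcript length. Stimulated Lkb1-/- and clone A2 libraries lie above the line and stimulated WT libraries below it, whereas per length Saa3 averaged 1.18 times Lcn2 in stimulated WT.

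The replicate number moved with these levels. Saa3 and Lcn2 were each lowest in replicate 1 of the stimulated libraries in 4 of 4 genotypes, as were 18.1% of all tested genes, and Ptx3 in 1 of 4. Hp was as well outside clone A1, where replicates 1 and 3 held 1 count each. In clone A2 the third replicate had the highest Saa3 and the lowest Ptx3 under both treatments. Above, the block is given where it changed a call of a member. With the block, stimulated clone A2 minus Lkb1-/- was -0.02 ± 0.23 for Saa3 and 0.46 ± 0.21 for Lcn2 (log2). Stimulated clone A2 minus clone A1 was 4.20 ± 0.28 for Saa3 and 2.86 ± 0.22 for Lcn2.

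Across the 8 group means, on a scale of log2 CPM, Saa3 correlated with Lcn2 at r = 0.982, with Hp at 0.905 and with Ptx3 at 0.487, and Hp with Ptx3 at 0.233. These 8 means share libraries and treatments and are a description. Among 12838 other tested genes (12839 for Hp) with a mean log2 CPM above 0, those most like Saa3 were Rad52 (r = 0.986), Lcn2 and Mt2 (0.972). Those most like Lcn2 were Saa3, Rcan1 (0.978) and Zfp655 (0.978), those most like Hp were Insig2 (0.980), H2-T10 (0.972) and Bmp2k (0.967), and those most like Ptx3 were Trmt13 (0.995), Tsr2 (0.987) and Col5a3 (0.984). A high r here says nothing of size: Rad52 ranged from 10.4 to 16.2 CPM over the group means.

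The wider acute-phase set was taken as a list of 32 other genes known to rise in this response, of which 18 were tested. In untreated Lkb1-/- against WT MEFs 13 were called higher and 2 lower, where 30.1% and 25.8% of all genes were. The list's median log2 fold change was 2.90, or 2.14 when a fold against a group at or under 3 counts was replaced by its bound, against 0.04 over all genes. C3, the central complement component, rose from 3.82 ± 0.964 to 156 ± 18 CPM (SD, n = 3). Orm1, an orosomucoid that shares reads with its paralogs, had 0 counts in untreated WT libraries and 2.07 CPM in untreated Lkb1-/-. S100a8, a subunit of calprotectin, went from 1 count in 3 libraries to 2.49 CPM. After IL-1β 11 were called higher and 3 lower, where 30.2% and 27.1% of all genes were, with a median of 1.32 against 0.03 over all genes.

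The IL-1β response of this list was called higher for 6 of 18 in WT, 5 in Lkb1-/-, 2 in clone A1 and 9 in clone A2, where 1.53%, 2.65%, 1.20% and 2.81% of all genes were, and lower for none. With the replicate block the counts were 9, 9, 8 and 11 higher, where 4.70%, 5.77%, 3.68% and 7.27% of all genes were, and 1 lower in Lkb1-/-. Steap4, a metalloreductase, was called in all 4 genotypes, with a log2 change of 4.59 ± 0.53 in Lkb1-/-, 4.78 ± 0.46 in clone A1 and 4.66 ± 0.47 in clone A2. The metallothionein Mt2, a buffer for zinc and copper, rose by 1.71 ± 0.14 in WT, 1.15 ± 0.14 in Lkb1-/-, 1.18 ± 0.14 in clone A1 and 1.31 ± 0.14 in clone A2. C3 rose by 3.34 ± 0.27 in WT and by 1.22 ± 0.23 in Lkb1-/- MEFs, and this difference in response was called (-2.12 ± 0.36, FDR = 0.008 in edgeR's quasi-likelihood test).

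Between stimulated clone A1 and Lkb1-/- MEFs 9 of the 18 were called lower and 2 higher, where 17.3% and 19.4% of all genes were. Orm1 was lower by 3.07 ± 0.45, S100a8 by 1.98 ± 0.41 and C4b, another complement component, by 1.24 ± 0.35, and Steap4 was higher by 1.38 ± 0.40. Clone A2 had 3 called higher and 1 lower, where 32.8% of all genes were called in either direction, or 6 and 4 with the block, where 24.4% and 22.1% were. Those higher were Serpina3g (1.95 ± 0.46), the lipopolysaccharide-binding protein Lbp (1.78 ± 0.59) and the antichymotrypsin homolog Serpina3n (1.46 ± 0.28). The Lbp call was lost in a fit of the 2 groups alone, without the second or the third clone A2 library and without the first Lkb1-/- library. Serpina3 genes form a family of close copies, so their counts are uncertain. Of 7 genes known to fall in the acute phase 1 was tested, the retinol carrier Rbp4, and the others did not pass the filter. Rbp4 was scarce, at 0.0612 ± 0.0873 CPM in untreated WT and 0.381 ± 0.103 in untreated Lkb1-/- MEFs (SD, n = 3), and called higher in Lkb1-/- (2.54 ± 0.92). After IL-1β it was 15.5-fold higher in Lkb1-/- than in WT (95% counting interval 5.79 to 58.7), and called lower than in Lkb1-/- in both clones, by 31.7-fold (8.43 to 267) in clone A1 and 67.9-fold (11.8 to 2720) in clone A2.

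Of 15 cytokines and receptors that induce acute-phase genes 12 were tested. Il6 was 3.72 CPM in stimulated WT, 118 in stimulated Lkb1-/-, 5.88 in stimulated clone A1 and 16.0 in stimulated clone A2. It was called lower than in Lkb1-/- MEFs in clone A1 (-4.33 ± 0.22) and in clone A2 (-2.89 ± 0.21), and Il11 (-3.20 ± 0.26 and -3.75 ± 0.27) and Lif (-0.86 ± 0.14 and -2.03 ± 0.14) likewise. In clone A2 these 3 cytokines were thus called lower while Saa3, Lcn2 and Hp were not. Of the 12, stimulated clone A1 had 9 called lower with 1 higher, where 17.3% and 19.4% of all genes were, and clone A2 had 3 lower with 2 higher, where 32.8% were called in either direction. The IL-1 receptor Il1r1 was 175 CPM in stimulated Lkb1-/- and 154 in clone A2, and called lower in clone A1 (-0.72 ± 0.14, 107 CPM). In WT MEFs Il6, Lif, Osmr and Il6ra were among 5 of 12 called higher after IL-1β, where 1.53% of all genes were. Lif responded by 2.24 ± 0.21 more in Lkb1-/- than in WT MEFs (FDR = 7e-06) and by 1.44 ± 0.21 less in clone A1 than in Lkb1-/- MEFs (FDR = 0.015, both in edgeR's quasi-likelihood test).

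Of 14 transcription factors of acute-phase genes 11 were tested. Cebpb encodes the IL-6-activated C/EBPβ. After IL-1β it was 102 ± 22.0 CPM in WT (SD, n = 3), 376 ± 82.6 in Lkb1-/-, 193 ± 45.3 in clone A1 and 365 ± 108 in clone A2. Stimulated clone A1 was called higher than WT for Cebpb, whereas Saa3 was called there only without the filter and with the block. Cebpb was called higher than WT in stimulated clone A2 too. It was called higher in Lkb1-/- than in WT (1.88 ± 0.22), lower in clone A1 (-0.97 ± 0.22) and not called in clone A2 (-0.05 ± 0.21) against Lkb1-/-. Cebpd rose after IL-1β in every genotype, by 2.56 ± 0.22 in Lkb1-/- to 3.45 ± 0.23 in clone A2, and Nfkbiz, the IκBζ coactivator, by 1.70 ± 0.11 in clone A2 to 2.29 ± 0.11 in WT. Of the 11, 8 were called lower and 1 higher in stimulated clone A1 against Lkb1-/- MEFs, where 17.3% and 19.4% of all genes were, and 3 lower and 2 higher in clone A2, where 32.8% were called. With the block 5 were lower and 3 higher in clone A2, where 22.1% and 24.4% of all genes were. No factor of the list was called for a difference in response between genotypes without the block, and 1, Nfkb2, was with it (-0.47, clone A1 minus Lkb1-/-). All 7 genes of feedback and mRNA stability were tested, and stimulated clone A1 had 2 of them called higher than Lkb1-/- MEFs and 1 lower. The NF-κB brakes Nfkbia and Tnfaip3 were higher (0.35 ± 0.11 and 0.47 ± 0.13), and Irak3, an inhibitor of IL-1 receptor signalling, was lower (-2.14 ± 0.26). The Nfkbia call was lost without the first Lkb1-/- or the second or the third clone A1 library, and with the block 3 of the 7 were lower, where 23.3% of all genes were. Zc3h12a, whose nuclease Regnase-1 degrades inflammatory mRNA, rose by 2.58 ± 0.16 to 2.95 ± 0.16 in the 4 genotypes.

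**Figure D4:**
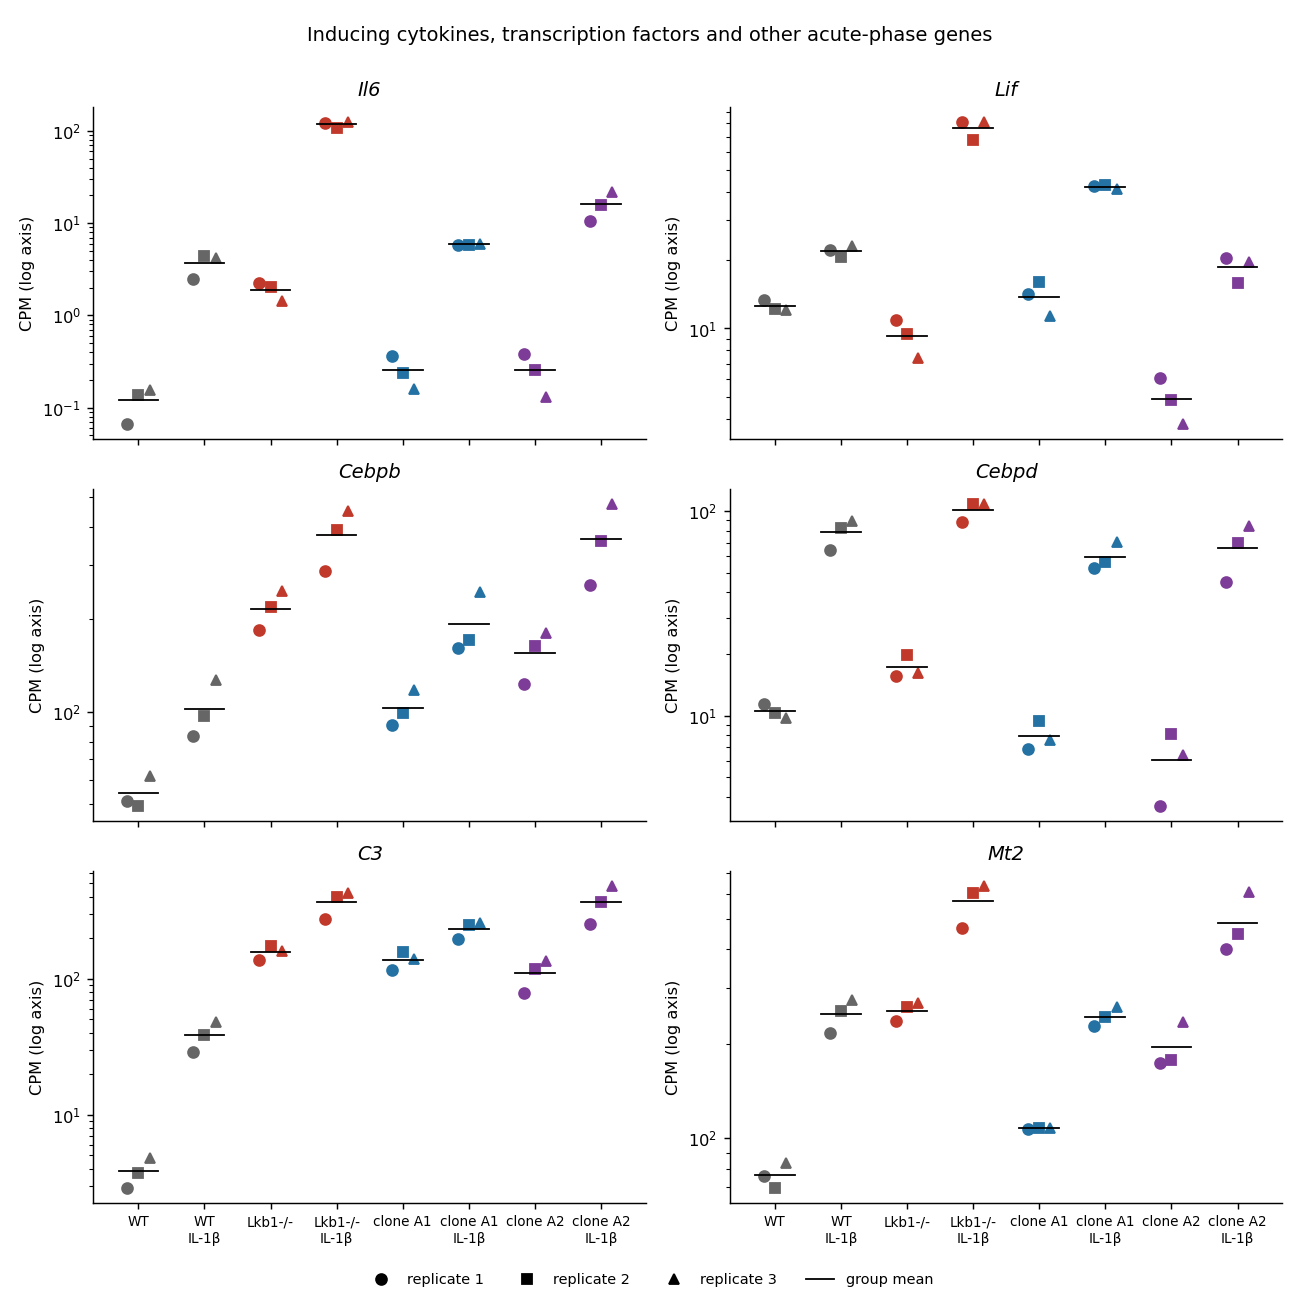
Level of Il6, Lif, Cebpb, Cebpd, C3 and Mt2 in each library, in CPM on a log axis, by genotype and treatment, with 1 symbol per library and a bar for the group mean. Il6 in stimulated clone A2 (16.0 CPM) is well below Lkb1-/- (118 CPM), whereas Cebpb (365 against 376 CPM) is not.

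Of 20 receptors and partners of the 6 proteins 13 were tested, and 8 were called higher and 2 lower in untreated Lkb1-/- against WT MEFs, where 30.1% and 25.8% of all genes were. Tnfaip6, which joins Ptx3 in the hyaluronan matrix, had 0 counts in untreated WT libraries and 18.1 ± 0.975 CPM (SD, n = 3) in untreated Lkb1-/-, at least 253-fold higher. Selp, which encodes the adhesion receptor P-selectin, went the other way, from 4.64 ± 1.02 CPM in untreated WT to 0.0385 ± 0.0349 in untreated Lkb1-/-, 119-fold lower (95% counting interval 50.6 to 367). Mmp9, the gelatinase that Lcn2 binds, rose after IL-1β in every genotype, by 1.94 ± 0.45 in WT, 1.90 ± 0.21 in Lkb1-/-, 0.91 ± 0.21 in clone A1 and 1.5 ± 0.20 in clone A2 (log2). The WT call was lost by the newer quasi-likelihood method and without the first untreated or the third stimulated library, and the clone A1 call without the first or the third untreated or the second or the third stimulated library. Tlr2, a receptor reported for serum amyloid A, rose in WT, Lkb1-/- and clone A2 MEFs and in clone A1 only with the block (0.76 ± 0.24), and its WT call was lost without the first or the second untreated or the third stimulated library. Of 6 pentraxin relatives Nptxr alone was tested, and of 10 lipocalin relatives 4.

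Of 21 genes within 50 kb of a member 16 were tested. In untreated Lkb1-/- against WT MEFs 4 were called higher and 5 lower, where 30.1% and 25.8% of all genes were, and in stimulated clone A2 against Lkb1-/- MEFs 7 higher and 4 lower, where 32.8% were called in either direction. For the IL-1β response none was called in WT or clone A1, where 1.53% and 1.20% of all genes were called higher, 1 was in Lkb1-/- (2.65%) and 2 were in clone A2 (2.81%). In Lkb1-/- and clone A2 MEFs Ptges2, a prostaglandin E synthase 7644 bases from Lcn2, was called higher by 0.33 ± 0.07 (FDR = 0.0053) and 0.39 ± 0.07 (FDR = 0.0011 in edgeR's quasi-likelihood test). In clone A2 1110008P14Rik, also beside Lcn2, was called higher by 0.56 ± 0.10. In a fit of the 2 groups alone none of these 3 calls held, and that of Ptges2 in Lkb1-/- MEFs was also lost without the filter and without the third untreated library. Hps5, Saal1 and Tph1 around the Saa cluster and Dhx38 and Txnl4b beside Hp were not called in any genotype. Veph1 overlaps Ptx3 on the opposite strand, which the stranded counts keep apart.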

How the data were processed

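Counts of read pairs per gene were deposited by the authors for each library, as whole numbers without normalization. The authors trimmed reads with Trim Galore 0.6.0 and aligned them with STAR 2.7.8a to GRCm38 with GENCODE vM24. The library kit is not settled, since the labels give SMARTER mRNA-Seq and the study's methods KAPA HyperPrep after ribosomal depletion. The count column of the second strand was used, which held 95.5% to 96.0% of stranded counts. Lines that name no gene held 26.7% to 34.4% of pairs and were left out. Counts lay between 38842901 and 48594394 per library, which limits precision below about 10 counts of a gene, and intervals cover counting error only. Symbols and positions came from GENCODE M21 (55144 of 55471 identifiers matched), promoter sequences from RefSeq on GRCm38.p6, ending before any annotated UTR.

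edgeR 4.0.16 in R 4.3.3 fitted all 24 libraries with 1 coefficient per group, after filterByExpr (minimum count 10, minimum total 15) and TMM, with the older quasi-likelihood test, and 17 contrasts were called at a Benjamini-Hochberg FDR of 0.05. Standard errors are Wald errors of the same fit. Groups with at most 3 counts in each library have no fitted fold: a bound is given against 0 counts and an exact 95% counting interval otherwise. In data simulated for the stimulated Lkb1-/- and WT comparison (17031 genes), 84% of 2-fold and 98% of 4-fold changes were recovered. The changed genes were drawn from those with a mean log2 CPM above 0, so these shares do not describe genes as scarce as Hp and Saa2. Deviations from the group means of libraries with the same replicate number correlated at 0.238 to 0.819 in 84 of 84 pairs over 9369 genes with a mean log2 CPM above 3, so the numbers were taken to pair the libraries (over all 17522 genes 69 of 84 pairs exceeded 0.1). Alternatives were unstranded counts, RLE and upper quartile scaling, the newer quasi-likelihood method, no filter, at least 10 counts in every library, a replicate block, a block within each genotype, DESeq2 1.42.0, fits of the compared groups by themselves, and omission of every library in turn. Named list genes were up to 4 per list and contrast with the largest called change at a mean log2 CPM above 0, genes within 50 kb, the 3 genes most like each member, Stk11 and Crtc2. Genes outside this rule are named only beside a member. The members and lists were chosen with earlier results of these data known.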

Additional observations from a re-analysis of the deposited data

Results flagged for a closer look

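The IL-1β response of C3, an acute-phase gene, and of Lif, an inducing cytokine, differed between genotypes by an interaction term in edgeR's quasi-likelihood test over all genes. C3, the central complement component, responded less in Lkb1-/- than in WT MEFs (log2 difference -2.12 ± 0.36, FDR = 0.008), and stayed between -2.30 and -1.90 in every alternative, with an FDR of at most 0.04. This is a difference of fold changes: C3 was already higher in untreated Lkb1-/- than in untreated WT MEFs. Lif, a cytokine that acts through gp130, responded by 2.24 ± 0.21 more in Lkb1-/- than in WT MEFs (FDR = 7e-06; 2.13 to 2.41 in the alternatives). Lif also responded less in clone A1 than in Lkb1-/- MEFs (-1.44 ± 0.21, FDR = 0.015), between -1.58 and -1.30 in the alternatives. That last call was lost without the first or the second stimulated clone A1, the second untreated clone A1, or the third untreated or stimulated Lkb1-/- library, with an FDR of 0.051 to 0.085.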

How the results depend on the processing

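No called result changed direction under any alternative. Uncalled values near 0 did, among them the Saa3 difference between stimulated clone A2 and Lkb1-/- MEFs (log2 -0.49 to 0.67) and the response differences of clone A1 minus Lkb1-/- for Saa3 (-0.43 to 0.31) and Lcn2 (-0.48 to 0.03) and of clone A2 minus Lkb1-/- for Lcn2 (-0.67 to 0.25) and Ptx3 (-0.24 to 0.23), as well as some of Hp and Saa2. With at least 10 counts in every library only Ptx3 was left to test, since the other members had at most 1 count in each untreated WT library. That setting therefore says nothing of Saa3 and Lcn2 between stimulated groups, whose libraries held at least 30 and 45 counts of them. Ptx3 was called in 1 of 1 cases wherever members were called before, except in the clone A1 response (0). Without a filter, 954, 1428, 908 and 1643 genes were called for the IL-1β response of WT, Lkb1-/-, clone A1 and clone A2 MEFs, against 396, 831, 348 and 995 with it. Without it, 347, 141 and 68 genes were called for the differences in response (Lkb1-/- minus WT, clone A1 minus Lkb1-/-, clone A2 minus Lkb1-/-), against 43, 5 and 0, with 2 members in the first and 1 in the last. It also gave 3 and 2 members for clone A2 against Lkb1-/- untreated and stimulated, and 4 for the untreated clones, where 5548, 5634 and 5697 genes were called, against 5655, 5755 and 5692 with the filter. With the replicate number as a block, 1629, 2601, 1684 and 3133 genes were called for the responses and 311, 36 and 18 for their differences. The block gave 1 member for clone A2 against Lkb1-/- untreated, 1 for the same stimulated and 4 for the untreated clones. It changed no call of a member beyond those given with the results. A replicate block within each genotype gave 1003, 267 and 183 genes for the differences, with 1 member in the first and 1 in the last. DESeq2 called 621 and 573 genes for the responses of WT and clone A1, 112, 11 and 10 for the differences, and 4 members between the untreated clones, where the newer quasi-likelihood method called 1. Upper quartile scaling gave 76, 3 and 1 genes for the differences, unstranded counts 3 for the second, and at least 10 counts 70 for the first. The 2 or 4 groups compared alone gave 70 genes for the first difference, and 246 genes and 2 members for the clone A2 response. The cause of these shifts was not tested.

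With 1 library left out at a time, the genes called ranged from 9085 to 9523 and from 9288 to 9662 for Lkb1-/- minus WT untreated and stimulated (3 to 4 and 4 to 5 members). They ranged from 203 to 412, 544 to 763, 197 to 233 and 679 to 1890 for the 4 responses (2 to 3, 3 to 4, 2 and 3 to 6 members), and from 23 to 57, 0 to 4 and 0 to 1 for the differences (0 members). The extremes came without the second untreated WT library (203), the second untreated Lkb1-/- library (544) and the first untreated clone A2 library (1890). For clone A1 minus Lkb1-/- they ranged from 5220 to 5626 untreated and 5355 to 5891 stimulated (1 to 3 and 3 to 5 members), and for clone A2 minus Lkb1-/- from 4613 to 6039 and 4864 to 5797 (0 to 1 member in each). They ranged from 4732 to 6116 and 4253 to 5507 between the clones (2 and 4 to 6 members), and from 9237 to 9639 and 9919 to 10407 for the stimulated clones against WT (1 to 2 and 4 to 6 members). Against Lkb1-/-, Ptx3 was called lower in untreated clone A2 without its second library or the third Lkb1-/- library, and 1 member was called in stimulated clone A2 without its first or second library. Ptx3 lost its call in stimulated clone A2 against WT without the second clone A2 library. A count of 0 in a library allows up to 3 counts, so a difference in Saa1 or Saa2 was not detectable at this depth between groups whose libraries all lay at or under that limit.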
